A study of Homo sapiens with 12 samples.

Results

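The mRNAs described here encode receptors of bone morphogenetic proteins (BMPs), activins and transforming growth factor beta (TGF-beta), and the SMAD proteins that carry their signal into the nucleus. The members were all probes annotated to 10 gene symbols, BMPR2, BMPR1A, ACVR1, ACVR1B, ACVR2A, TGFBR1, SMAD2, SMAD4, SMAD5 and SMAD7. The table held 11 such probes for 8 of the symbols, of 15025 probes and 9583 named genes in all. No probe carried the symbol BMPR1A or TGFBR1, and these genes were not analysed here. Each probe was set between RNA recovered with a biotinylated microRNA and the input RNA, in HEK293T cells, derived from human embryonic kidney and transformed with adenovirus DNA and the SV40 large T antigen.

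The 12 Illumina bead arrays formed 4 groups of 3: miR-3118-3p pull-down, miR-3118-3p input, miR-4307-3p pull-down and miR-4307-3p input. Cells of every group, inputs included, had received 200 pmol of a synthetic biotinylated duplex of the named microRNA, and were harvested after 24 h, when RNA held with the microRNA was taken up on streptavidin beads. For each microRNA the only duplex of another sequence was that of the other microRNA. No cells without a duplex and no non-targeting duplex were analysed here as a control for background on the beads. A transfected duplex can exceed what a cell makes itself. The labels number the replicates but do not tie them to separate cultures, and p-values then cover only the spread among these 3 samples a group, which could be technical.

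Ligands of this family are dimers that bring together type II and type I receptors. The type II receptor phosphorylates the type I receptor, which in turn phosphorylates a receptor-regulated SMAD; this joins SMAD4 and acts on genes in the nucleus, while SMAD7 restrains the receptors. BMP receptors act mainly through SMAD1, SMAD5 and SMAD9, and the activin and TGF-beta receptors through SMAD2 and SMAD3. A microRNA guides an Argonaute protein to mRNAs mainly by pairing of its seed, bases 2 to 8, so the mature sequences of both are shown with the seed in capitals, 5′ to 3′, as RefSeq gives them for GRCh38.p14.
miR-3118-3p: uGUGACUGcauuaugaaaauucu
miR-4307-3p: aAUGUUUUuuccuguuucc
The RefSeq table lists both without an arm suffix, as hsa-miR-3118 and hsa-miR-4307, and both lie on the 3p side of their hairpins. miR-3118-3p has 23 bases and 4 loci with the same mature sequence: MIR3118-2 at chr15:20832838-20832860, MIR3118-3 at chr15:21406428-21406450 and MIR3118-4 at chr15:21843793-21843815, all on the plus strand, and MIR3118-1 at chr21:13644784-13644806 on the minus strand. miR-4307-3p has 19 bases and 1 locus, MIR4307 at chr14:26908697-26908715 on the plus strand. The seeds differ: a transcript pairs with the first through CAGUCAC and with the second through AAAACAU. In the seed, 3 of 7 bases were A or U in miR-3118-3p and 6 of 7 in miR-4307-3p, while over the whole sequences the shares were 69.6% and 68.4%. Of 2370 mature microRNA names in the table, hsa-miR-134-5p was the 1 other that shared the seed of miR-3118-3p, and 0 others shared that of miR-4307-3p. Transcript sequences of the members were not used here, so seed matches in them were not searched.

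All values are on the log2 scale of the deposited table, and a difference is the mean of 3 arrays minus the mean of 3 others, with the standard error (SE) of a linear model fitted on all probes. A probe is called higher or lower where its p, adjusted by Benjamini-Hochberg over all 15025 probes, lies under 0.05. Array medians lay between 7.53 and 7.59, so a difference is relative to all RNA an array measured and does not give the share of an mRNA that was recovered. No fold is quoted, because the sources used here do not say whether the log2 scale is plain or variance-stabilised. Levels of different probes are not comparable; where a gene had a pair of probes, they are numbered in the order of their mean value. Within groups, arrays correlated at 0.988 or more across probes, except in the miR-3118-3p pull-down (0.963 to 0.983), where replicate 1 stood apart and received the lowest array weight, 0.214 against up to 2.25. The median SD of a probe was 0.226 in that pull-down and 0.129 to 0.137 in the other groups. The model used 1 spread per probe for all 4 groups. Of 10 markers listed for the HEK293 line, 5 were in the table (VIM, CDH2, LIN28B, NEFL and NEFM), with input means between 6.63 and 12.2. Of the markers of other cell types, 0 of 5 for blood, 1 of 5 for hepatocytes (ALB, 6.54), 2 of 6 for fibroblasts and muscle (COL1A1, 5.94, and ACTA2, 6.33) and 1 of 5 for squamous and gut epithelium (CDX2, 8.86) were.

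In the miR-3118-3p pull-down, 7 of the 11 probes were higher than in its input and 0 were lower, against 11.8% of all probes called higher and 12.8% called lower. The 7 probes belong to 5 of the 8 genes: BMPR2 and SMAD5 by both of their probes, ACVR1B and ACVR2A by their only probe, and SMAD7 by 1 of a pair. The other 4 probes, of ACVR1, SMAD2, SMAD4 and SMAD7, had differences between 0.17 and 0.21 and did not pass the test. All 11 differences were above 0, as were 46.9% of those of all probes, and their median was 0.40, against -0.03 over all probes. In the miR-4307-3p pull-down, 0 of the 11 probes were called by limma, against 7.86% of all probes called higher and 8.3% lower. At an unadjusted p under 0.05 the count there was also 0 of 11, against 4476 of all 15025 probes. There the median was 0.02, against -0.04 over all probes, with 6 differences above 0 and 5 below. These calls used 1 spread for all 4 groups, and the median SD was largest in the miR-3118-3p pull-down. With the spread of the 6 arrays compared, 3 of the 11 probes were higher with miR-3118-3p, against 863 of all probes higher and 892 lower. With miR-4307-3p 0 of the 11 were called so, against 1809 of all probes higher and 2233 lower. The members were chosen with earlier results of these data known, so these counts only describe them. No set test was made on these counts.

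**Figure D1:**
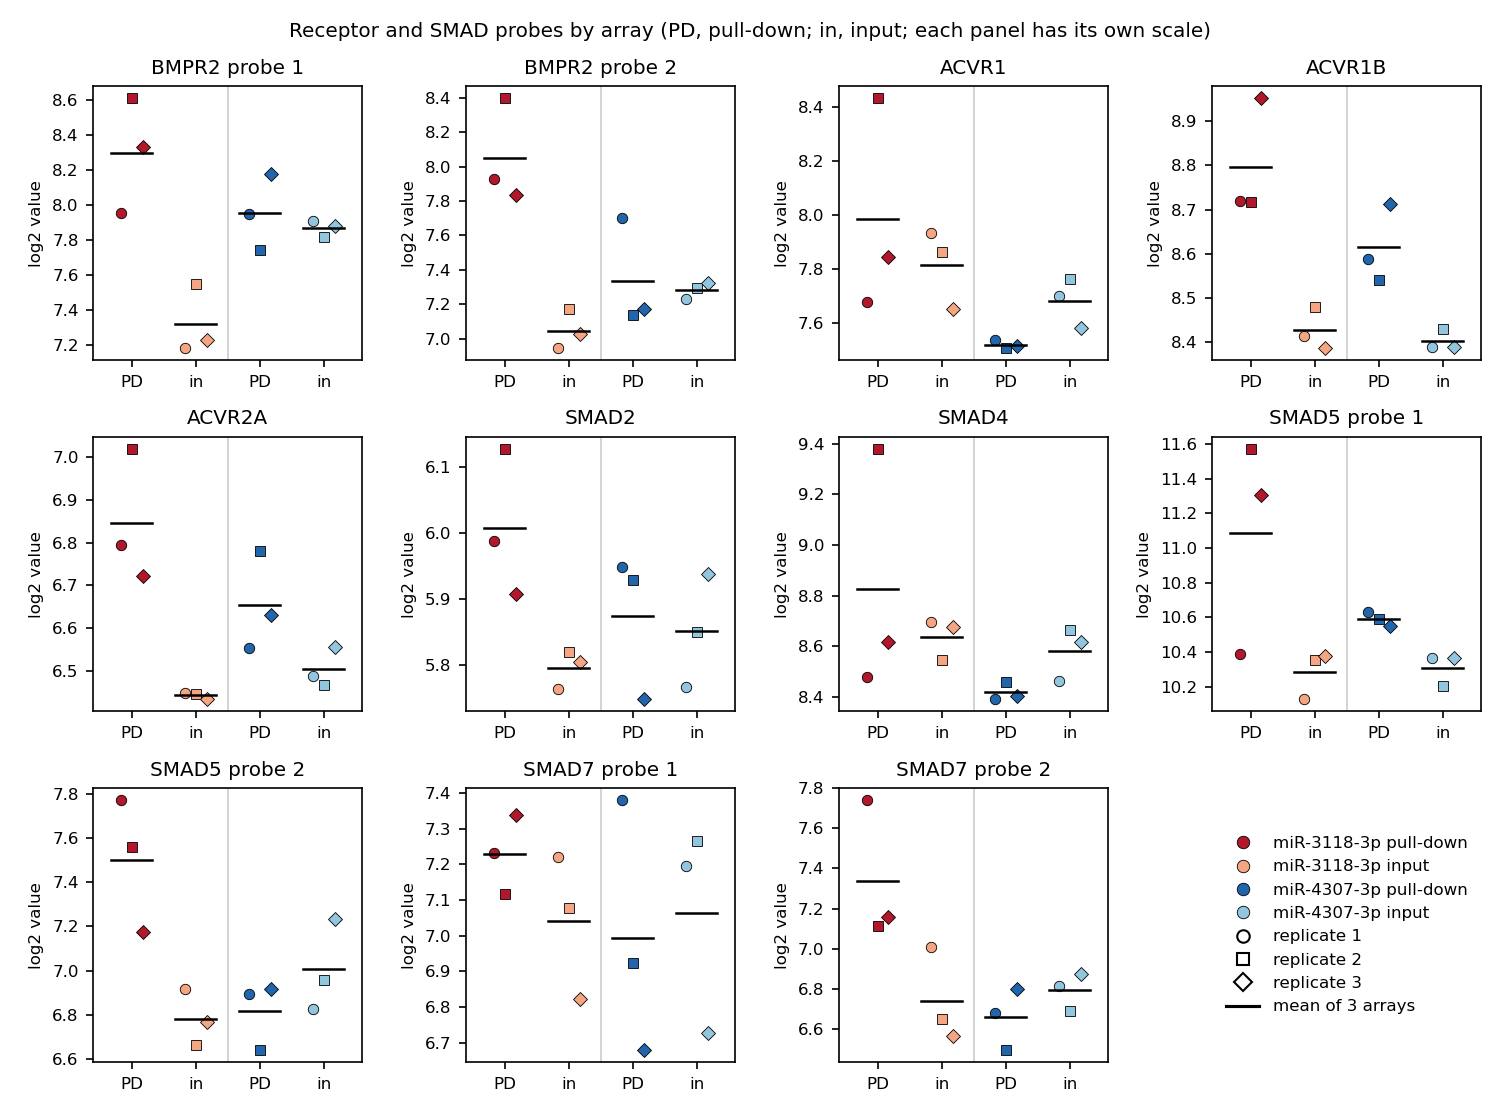
Log2 value of each of the 11 receptor and SMAD probes on each of the 12 arrays, with pull-down (PD) left of input (in) and miR-3118-3p left of miR-4307-3p; symbols mark the replicate, bars the mean of 3 arrays, and each panel has its own scale. For both BMPR2 probes all 3 miR-3118-3p pull-down arrays lie above all 3 inputs, while the miR-4307-3p pull-down arrays overlap theirs.

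BMPR2 encodes the type II receptor of BMPs, the gene most often mutated in heritable pulmonary arterial hypertension. Its probe 1 (ILMN_2070896) read 7.95, 8.61 and 8.33 in the miR-3118-3p pull-down, against 7.18, 7.55 and 7.23 in the miR-3118-3p input. Its probe 2 (ILMN_1789095) read 7.93, 8.40 and 7.83 in the pull-down, against 6.95, 7.17 and 7.02 in the input. By both probes every pull-down array lay above every input array. The differences were 0.97 ± 0.17 (SE, n = 3 per group; limma, adjusted p = 0.00121) for probe 1 and 1.00 ± 0.17 (adjusted p = 0.00107) for probe 2, which placed them at the 98.2 and 98.5 percentiles of all probes. They were the largest 2 among the 11 probes and passed the test in all alternatives run on them, 24 for probe 1, with values between 0.82 and 1.15, and 23 for probe 2, between 0.83 and 1.11. The pull-down was set against its own input, so these values concern recovery and not an amount of the mRNA per cell.

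With miR-4307-3p the same probes gave no call. BMPR2 probe 1 read 7.95, 7.74 and 8.17 in that pull-down, against 7.91, 7.81 and 7.88 in the miR-4307-3p input, a difference of 0.09 ± 0.17 (95% interval -0.27 to 0.44). BMPR2 probe 2 read 7.70, 7.14 and 7.17 in the pull-down, against 7.23, 7.29 and 7.32 in the input, a difference of 0.06 ± 0.17 (95% interval -0.30 to 0.41). The groups overlapped for both probes. Over the 12 arrays the pair of BMPR2 probes correlated at r = 0.805, a description of arrays that include the groups just compared.

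ACVR2A is the type II receptor of activins and also binds several BMPs. Its probe (ILMN_2152711) read 6.80, 7.02 and 6.72 in the miR-3118-3p pull-down, against 6.45, 6.45 and 6.43 in the miR-3118-3p input. All pull-down arrays lay above the inputs, which spanned a narrow range. The difference was 0.40 ± 0.12 (adjusted p = 0.0212), and that for miR-4307-3p was 0.15 ± 0.12 (adjusted p = 0.420). The miR-3118-3p call was lost without pull-down replicate 2 (0.32, adjusted p = 0.0874), as it was without any 1 of the 3 inputs (0.40 in each case, adjusted p between 0.0532 and 0.0609). It was also lost with the spread of the 6 miR-3118-3p arrays alone (adjusted p = 0.0848).

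Among type I receptors, ACVR1B, which transmits activin signals to SMAD2 and SMAD3, read 8.72, 8.72 and 8.95 in the miR-3118-3p pull-down, against 8.41, 8.48 and 8.39 in the miR-3118-3p input (ILMN_2243308). In the miR-4307-3p pull-down it read 8.59, 8.54 and 8.71, against 8.39, 8.43 and 8.39 in the miR-4307-3p input. With either microRNA all pull-down arrays lay above the inputs. The difference passed the test with miR-3118-3p, at 0.37 ± 0.11 (adjusted p = 0.0268), and missed it with miR-4307-3p, at 0.21 ± 0.11 (adjusted p = 0.225). The miR-3118-3p call was lost without pull-down replicate 3 (0.29, adjusted p = 0.0891), without any 1 of the 3 inputs (0.35 to 0.40, adjusted p between 0.0523 and 0.0836), and in 2 fits of the spread given in the closing section.

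ACVR1, the type I receptor of BMPs whose activating mutations cause fibrodysplasia ossificans progressiva, was not called in either pull-down (ILMN_1760490). It read 7.68, 8.43 and 7.85 in the miR-3118-3p pull-down, against 7.93, 7.87 and 7.65 in the miR-3118-3p input, and pull-down replicate 2 alone lay above the inputs. The difference was 0.17 ± 0.16 (95% interval -0.18 to 0.52) and turned to -0.055 without that array. In the miR-4307-3p pull-down it read 7.54, 7.51 and 7.52, all below the inputs at 7.70, 7.77 and 7.58, with a difference of -0.16 ± 0.16 (95% interval -0.51 to 0.19).

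**Figure D2:**
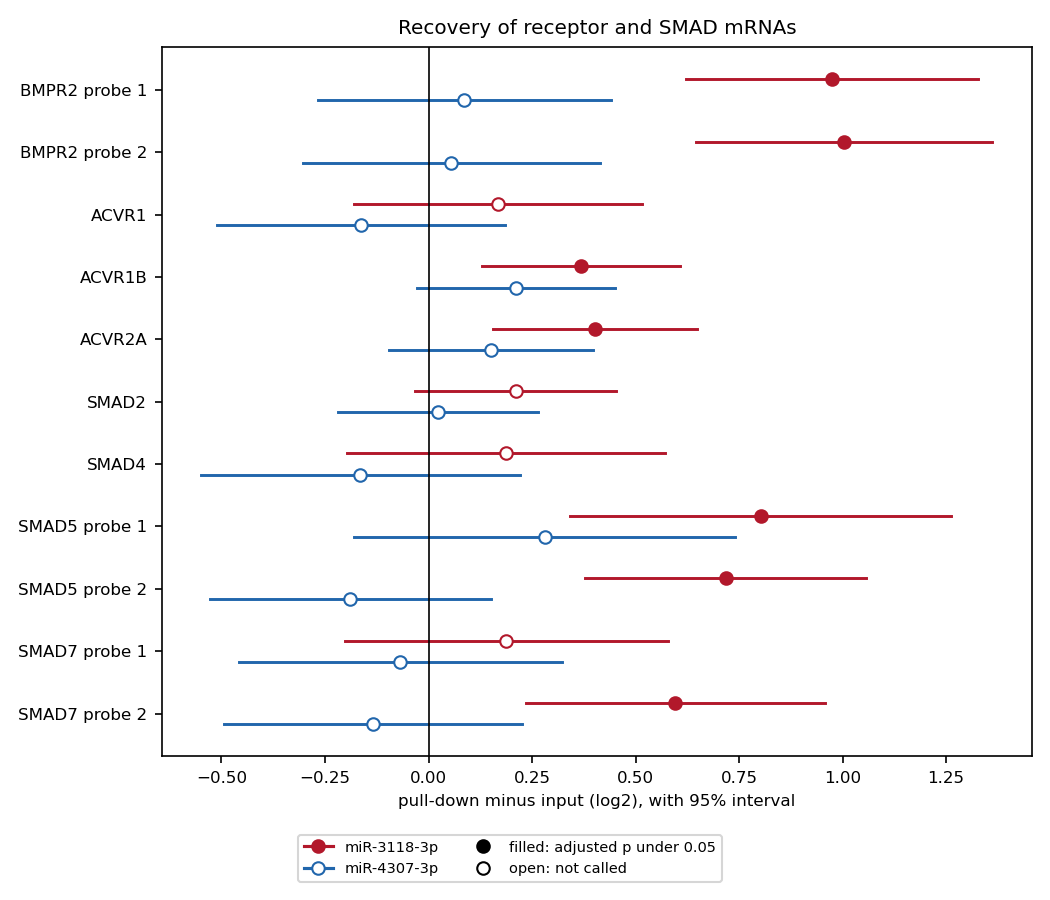
Pull-down minus input on the log2 scale with its 95% interval for the 11 receptor and SMAD probes, miR-3118-3p above miR-4307-3p; filled points have an adjusted p under 0.05. With miR-3118-3p 7 points are filled and all lie right of 0, with BMPR2 at 0.97 and 1.00; with miR-4307-3p none is filled and every interval spans 0.

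SMAD5, a receptor-regulated SMAD of the BMP branch, had a pair of probes that were both higher in the miR-3118-3p pull-down. SMAD5 probe 1 (ILMN_1674551) read 10.39, 11.57 and 11.31 there, against 10.13, 10.35 and 10.38 in the miR-3118-3p input. SMAD5 probe 2 (ILMN_2371984) read 7.77, 7.56 and 7.18 in the pull-down, against 6.92, 6.66 and 6.77 in the input. Replicate 1 was the lowest pull-down array for probe 1, just above the inputs, and the highest for probe 2. The differences were 0.80 ± 0.22 (adjusted p = 0.0150) for probe 1 and 0.72 ± 0.16 (adjusted p = 0.00547) for probe 2. Without pull-down replicate 1 they were 1.15 and 0.58, both still called. The probe 1 call was lost without pull-down replicate 2 (0.56, adjusted p = 0.0695) or input replicate 1 (0.72, adjusted p = 0.0606). It was also lost with the spread of the 6 miR-3118-3p arrays alone (adjusted p = 0.0810). Probe 2 passed in all 23 alternatives run on it, between 0.58 and 0.88.

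With miR-4307-3p the SMAD5 probes had differences of opposite sign, neither of them called. SMAD5 probe 1 read 10.63, 10.59 and 10.55 in that pull-down, against 10.36, 10.20 and 10.36 in the miR-4307-3p input, and all pull-down arrays lay above the inputs (0.28 ± 0.22, adjusted p = 0.421). SMAD5 probe 2 read 6.89, 6.64 and 6.92 in the pull-down, against 6.83, 6.96 and 7.23 in the input, with overlap (-0.19 ± 0.16, adjusted p = 0.467). Over the 12 arrays the pair correlated at r = 0.418. Which transcripts of SMAD5 each probe reads was not analysed here.

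SMAD2, the receptor-regulated SMAD of the activin and TGF-beta branch, read 5.99, 6.13 and 5.91 in the miR-3118-3p pull-down, against 5.76, 5.82 and 5.81 in the miR-3118-3p input (ILMN_1771203). The groups did not overlap, but the difference of 0.21 ± 0.11 missed the threshold (adjusted p = 0.192). The lowest value of any probe in those inputs was 5.70, so SMAD2 was read near the floor of the table. Without overlap, 8 of the 11 probes lay above their input with miR-3118-3p, the 7 called and SMAD2, against 15.7% of all probes. With miR-4307-3p the SMAD2 difference was 0.02 ± 0.11.

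SMAD4, the common partner of the receptor-regulated SMADs, was not called in either pull-down (ILMN_1741477). It read 8.48, 9.38 and 8.62 in the miR-3118-3p pull-down, against 8.70, 8.54 and 8.67 in the miR-3118-3p input. As for ACVR1, pull-down replicate 2 alone lay above the inputs, and the difference of 0.19 ± 0.18 turned to -0.089 without it. In the miR-4307-3p pull-down SMAD4 read 8.39, 8.46 and 8.40, each below the inputs at 8.46, 8.67 and 8.62, with a difference of -0.16 ± 0.18 (adjusted p = 0.592). In all, 2 of the 11 probes lay above their input without overlap with miR-4307-3p (ACVR1B and SMAD5 probe 1) and 2 below (ACVR1 and SMAD4), against 17.7% and 23% of all probes.

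SMAD7, the inhibitory SMAD that is itself a target of the pathway, had a pair of probes that gave different calls. SMAD7 probe 1 (ILMN_2203896) read 7.23, 7.12 and 7.34 in the miR-3118-3p pull-down, against 7.22, 7.08 and 6.82 in the miR-3118-3p input, with overlap and a difference of 0.19 ± 0.18 (adjusted p = 0.486). SMAD7 probe 2 (ILMN_2203891) read 7.74, 7.11 and 7.16 in the pull-down, against 7.01, 6.65 and 6.56 in the input, without overlap and with a difference of 0.60 ± 0.17 (adjusted p = 0.0195). The probe 2 difference was 0.40 (adjusted p = 0.0476) without pull-down replicate 1, the highest array. Its call was lost without input replicate 2 (0.55, adjusted p = 0.0686), without input replicate 3 (0.51, adjusted p = 0.0830) and when both probes were averaged (0.39, adjusted p = 0.0567). The spread of the 6 miR-3118-3p arrays alone ended it too (adjusted p = 0.0828). With miR-4307-3p the differences were -0.07 ± 0.18 for probe 1 and -0.13 ± 0.17 for probe 2, and over the 12 arrays the pair correlated at r = 0.342.

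The next comparison asked whether recovery differed between the microRNAs, as the miR-3118-3p enrichment minus the miR-4307-3p enrichment, in the same model. Of the 11 probes, 3 passed the test as higher with miR-3118-3p, both of BMPR2 and 1 of the pair of SMAD5. In the other direction 0 passed, against 2.77% of all probes higher and 4.82% lower. All 3 calls depended on single arrays, and for BMPR2 a gap between the inputs enters the difference, as given below. BMPR2 probe 1 differed by 0.89 ± 0.23 (adjusted p = 0.0297), BMPR2 probe 2 by 0.95 ± 0.24 (adjusted p = 0.0221) and SMAD5 probe 2 by 0.91 ± 0.22 (adjusted p = 0.0209). All 11 differences were above 0, between 0.16 for ACVR1B and 0.95, with a median of 0.35, against 0.02 over all probes. SMAD7 probe 2, at 0.73 ± 0.24, missed the threshold (adjusted p = 0.0828), as did SMAD5 probe 1, at 0.52 ± 0.31 (adjusted p = 0.389). ACVR1B and ACVR2A, called with miR-3118-3p and not with miR-4307-3p, were not shown to differ between them, at 0.16 ± 0.16 (95% interval -0.18 to 0.50) and 0.25 ± 0.16 (95% interval -0.10 to 0.60).

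These differences rested on few arrays. BMPR2 probe 1 lost its call when any 1 of 8 of the 12 arrays was left out (0.73 to 0.91, adjusted p between 0.0581 and 0.0857): miR-3118-3p pull-down replicate 2, miR-3118-3p input replicates 1 and 3, miR-4307-3p pull-down replicates 1 and 2, and each miR-4307-3p input. BMPR2 probe 2 lost its call without any 1 of 6 arrays (0.85 to 0.94, adjusted p between 0.0525 and 0.0699): miR-3118-3p input replicates 1 and 3, and replicates 2 and 3 of the miR-4307-3p pull-down and input. SMAD5 probe 2 lost its call without miR-3118-3p input replicate 2, miR-4307-3p pull-down replicate 2 or miR-4307-3p input replicate 3 (0.79 to 0.85, adjusted p between 0.0640 and 0.0650). SMAD5 probe 1 was called as well when miR-3118-3p pull-down replicate 1 was left out (0.87, adjusted p = 0.00307), and SMAD7 probe 2 when replicate 2 was (0.84, adjusted p = 0.0491). With the replicate number as a block, SMAD7 probe 2 passed the test (adjusted p = 0.0441), and 4 of the 11 probes were called in place of 3.

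A difference of enrichments holds the gap between the inputs as well as that between the pull-downs. For BMPR2 the inputs lay apart. Probe 1 averaged 7.32 ± 0.20 in the miR-3118-3p input and 7.87 ± 0.05 (SD, n = 3 each) in the miR-4307-3p input, without overlap, a difference of -0.55 ± 0.17 (SE). Its unadjusted p was 0.00494 and its adjusted p 1.00, and it lay at the 0.0466 percentile of all probes; 0 probes in the table passed the test between inputs by limma, 252 at an unadjusted p under 0.05. Probe 2 averaged 7.05 ± 0.11 in the miR-3118-3p input and 7.28 ± 0.05 in the miR-4307-3p input, also without overlap (-0.23 ± 0.17), and the ACVR2A inputs did not overlap either (-0.06 ± 0.12). Thus 3 of the 11 probes were below without overlap between inputs, against 5.06% of all probes. These gaps passed no test after adjustment, so they are not shown to exceed the spread among arrays. The cells of both inputs carried a duplex, so a gap cannot be assigned to either input.

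The pull-downs were therefore also set against each other, a comparison added after the BMPR2 input values were seen. SMAD5, SMAD7 and BMPR2 were higher in the miR-3118-3p pull-down by 1 probe each, and 0 of the 11 probes were lower, against 9.69% of all probes higher and 10% lower. BMPR2 probe 2 averaged 8.05 ± 0.30 with miR-3118-3p, against 7.34 ± 0.31 with miR-4307-3p (SD, n = 3 each), a difference of 0.71 ± 0.17 (SE; adjusted p = 0.00718, and 0.0534 with the spread of the 6 pull-down arrays alone). SMAD5 probe 2 read between 7.18 and 7.77 with miR-3118-3p and between 6.64 and 6.92 with miR-4307-3p (0.68 ± 0.16, adjusted p = 0.00675), and SMAD7 probe 2 averaged 7.34 ± 0.35 with miR-3118-3p, against 6.66 ± 0.15 with miR-4307-3p (0.68 ± 0.17, adjusted p = 0.0104). BMPR2 probe 1 averaged 8.30 ± 0.33 with miR-3118-3p, against 7.95 ± 0.22 with miR-4307-3p, with overlap, and was not called (0.34 ± 0.17, adjusted p = 0.177), except without miR-3118-3p pull-down replicate 1 (0.51, adjusted p = 0.0209) and with both probes averaged (0.53, adjusted p = 0.0203). Without that array 7 of the 11 probes were called higher: SMAD5 probe 1 (0.85, adjusted p = 0.000152), ACVR1 (0.62, adjusted p = 0.00772) and SMAD4 (0.58, adjusted p = 0.0196) joined BMPR2 probe 1 and the 3 already called. With array weights 5 were, ACVR1 and SMAD5 probe 1 among them, and with the brightest probe of each gene 0 of 8 were. The gap between inputs made up more of the difference for BMPR2 probe 1 than the gap between pull-downs did. These comparisons share arrays with those above.

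**Figure D3:**
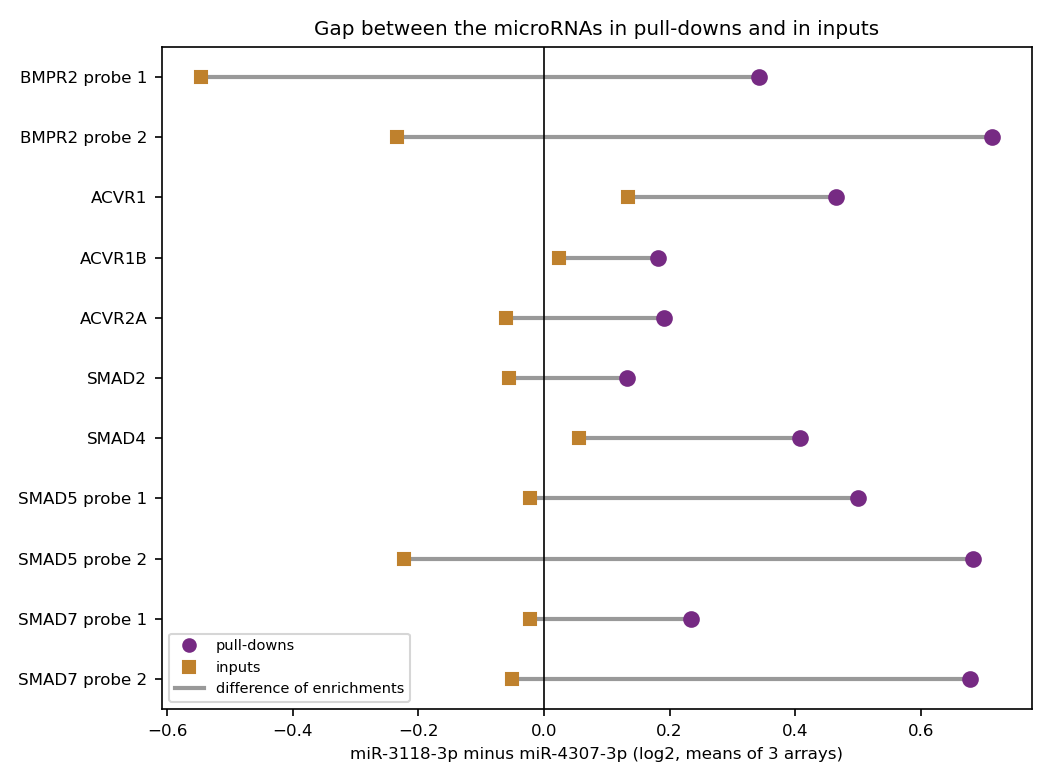
miR-3118-3p minus miR-4307-3p in log2 means of 3 arrays for each receptor and SMAD probe, between pull-downs (circles) and between inputs (squares); the line that joins them is the difference of enrichments. BMPR2 probe 1 has the widest gap between inputs, -0.55, and 0.34 between pull-downs, while SMAD7 probe 2 has -0.05 and 0.68.

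Over the 12 arrays, the 5 other named probes with the highest Pearson correlation with BMPR2 probe 1 were those of PTAR1 (r = 0.951), ZNF25 (0.920), E2F3 (0.920), HMBOX1 (0.918) and TGFBR3 (0.917). The correlation spans the 4 groups and is a description with no test. TGFBR3, the co-receptor also called betaglycan, is itself a receptor of the TGF-beta family.

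The other genes of the pathway were taken from a list of 127 in 6 roles, of which 63 were measured by 85 probes. With miR-3118-3p, 17 of these probes were higher and 12 lower (20.0% and 14.1%), and with miR-4307-3p 7 were higher and 10 lower (8.24% and 11.8%), beside the shares over all probes given above. Their medians were 0.04 with miR-3118-3p and -0.07 with miR-4307-3p.

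Other receptors were measured for 5 of 8 genes by 6 probes, 4 of them higher and 1 lower with miR-3118-3p, and 2 higher with miR-4307-3p. Over all probes the shares were 11.8% higher and 12.8% lower with miR-3118-3p, and 7.86% higher with miR-4307-3p. ACVR2B, an activin type II receptor, was higher with both, by 0.70 ± 0.17 (adjusted p = 0.00730) with miR-3118-3p and 0.52 ± 0.17 (adjusted p = 0.0426) with miR-4307-3p. TGFBR2, the type II receptor of TGF-beta, was higher with miR-3118-3p by both probes, by 0.38 ± 0.11 (ILMN_2384241, adjusted p = 0.0252) and 0.45 ± 0.16 (ILMN_1726245, adjusted p = 0.0486). With miR-4307-3p it was called by the first of these, at 0.36 ± 0.11 (adjusted p = 0.0446), and not by the second, at 0.21 ± 0.16. TGFBR3 was higher with miR-3118-3p, by 0.90 ± 0.23 (adjusted p = 0.0107), and uncalled with miR-4307-3p, at 0.22 ± 0.23. Its miR-3118-3p value was 0.58 (adjusted p = 0.0371) without pull-down replicate 2, and its call was lost without input replicate 1 (0.78, adjusted p = 0.0508) and with the spread of the 6 arrays (adjusted p = 0.0671). AMHR2, the receptor of anti-Müllerian hormone, was lower with miR-3118-3p (-0.49 ± 0.14, adjusted p = 0.0223), a call lost without pull-down replicate 2 or input replicate 1 or 2 (-0.50 to -0.38, adjusted p between 0.0582 and 0.101). BMPR1B, a BMP type I receptor, was called with neither (-0.08 with miR-3118-3p and 0.09 with miR-4307-3p). The difference between the microRNAs was not called for these 6 probes (adjusted p between 0.261 and 0.968). Lost most often were the call of TGFBR2 by ILMN_1726245 with miR-3118-3p, lost in 14 of 23 alternatives, that by ILMN_2384241 with miR-4307-3p, lost in 14 of 24, and that of ACVR2B with miR-4307-3p, lost in 7 of 23; that of TGFBR2 by ILMN_2384241 with miR-3118-3p was lost in 4 of 24, without pull-down replicate 2 or input replicate 1 or 3 among them (0.35 to 0.37, adjusted p between 0.0616 and 0.0848).

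Among the 3 other SMADs measured, 1 was called. SMAD3, of the TGF-beta branch, was higher with miR-4307-3p (0.48 ± 0.14, adjusted p = 0.0259), and uncalled with miR-3118-3p (0.25 ± 0.14, adjusted p = 0.199; 0.11 without pull-down replicate 1). The SMAD3 call was lost without replicate 1 or 3 of the miR-4307-3p pull-down or replicate 1 or 2 of its input (0.42 to 0.49, adjusted p between 0.0549 and 0.121). The inhibitory SMAD6 had -0.33 ± 0.15 (adjusted p = 0.115) with miR-3118-3p, a difference that passed the test with the replicate block within each microRNA (adjusted p = 0.0413) and without miR-3118-3p input replicate 1 (-0.47, adjusted p = 0.0429), and -0.22 with miR-4307-3p. SMAD9, of the BMP branch, had 0.13 with miR-3118-3p and -0.11 with miR-4307-3p.

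A ligand and a pseudoreceptor moved opposite ways with the microRNAs. BMP7 was lower with miR-3118-3p (-0.54 ± 0.12, adjusted p = 0.00444) and higher with miR-4307-3p (0.61 ± 0.12, adjusted p = 0.00209), and the difference was -1.16 ± 0.16 (adjusted p = 0.000354). BAMBI, a decoy that lacks a kinase domain, was lower with miR-3118-3p (-0.33 ± 0.11, adjusted p = 0.0428) and higher with miR-4307-3p (0.71 ± 0.11, adjusted p = 0.000567), and the difference was -1.04 ± 0.16 (adjusted p = 0.000678). The BAMBI call with miR-3118-3p was lost in 15 of 24 alternatives, the difference in none of 23. For the difference both were called lower, the only such calls among the 85 probes (2.35%, against 4.82% of all probes). Called higher were 0 of the 85, against 2.77% of all probes. That count was 1 with the replicate block, 4 with the block within each microRNA, 4 with array weights and 7 with pull-down replicate 1 of miR-3118-3p left out. Of the other ligand probes none was called with either microRNA, and of the other extracellular modulators RGMB, a BMP co-receptor, was higher with miR-3118-3p (0.41 ± 0.14, adjusted p = 0.0414), a call lost in 13 of 24 alternatives.

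Intracellular regulators gave 12 of the pathway's 17 higher probes with miR-3118-3p. These were 30% of the 40 measured, and 4 (10%) were lower, against 11.8% and 12.8% of all probes. With miR-4307-3p 2 were higher and 4 lower (5% and 10%), against 7.86% and 8.3% of all probes. LEMD3, an inner nuclear membrane protein that binds receptor-regulated SMADs and restrains them, was higher with miR-3118-3p by 1.27 ± 0.23 (adjusted p = 0.00155) and 1.38 ± 0.27 (adjusted p = 0.00251) for its probes. With miR-4307-3p the LEMD3 probes had 0.52 ± 0.23 (adjusted p = 0.138) and 0.77 ± 0.27 (adjusted p = 0.0638), neither called. NEDD4L, a ubiquitin ligase of activated SMAD2 and SMAD3, was higher with miR-3118-3p by 0.68 ± 0.12 (adjusted p = 0.00164), DAB2, an adaptor of the TGF-beta receptors, by 1 of its 2 probes, by 0.64 ± 0.16 (adjusted p = 0.00879; 0.12 and uncalled by the other, and 0.38 with both averaged, adjusted p = 0.0145), and EP300, a histone acetyltransferase that SMADs recruit, by 0.49 ± 0.11 (adjusted p = 0.00673). STUB1, a ubiquitin ligase, was lower with miR-3118-3p by 1 of its 2 probes (-0.54 ± 0.13, adjusted p = 0.00725), the other at -0.35 (adjusted p = 0.146). FKBP1A, which binds type I receptors and keeps them inactive, had 4 probes, of which the same 2 were lower with miR-3118-3p (-0.55 and -0.51) and with miR-4307-3p (-0.73 and -0.54). The other two were not called (-0.48 and -0.25 with miR-3118-3p, -0.22 and -0.19 with miR-4307-3p). Each called FKBP1A probe lost its miR-3118-3p call in 3 of 23 alternatives, input replicate 1 left out among them (-0.37 and -0.40, adjusted p = 0.110 and 0.0824); with miR-4307-3p the second lost it in 3 of 23.

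Of 20 probes for 13 target genes, 0 were higher with either microRNA, against 11.8% of all probes with miR-3118-3p and 7.86% with miR-4307-3p. Lower were 5 with miR-3118-3p and 6 with miR-4307-3p (25% and 30%), against 12.8% and 8.3% of all probes. ID1, ID2 and ID3, inhibitors of basic helix-loop-helix factors that BMP signals induce, were lower in both pull-downs. ID1 had -0.62 ± 0.15 with miR-3118-3p and -0.64 ± 0.15 with miR-4307-3p, and ID3 had -0.57 ± 0.13 with miR-3118-3p and -0.61 ± 0.13 with miR-4307-3p. ID2 had -0.46 and -0.61 by its probes with miR-3118-3p, and -0.87 and -0.73 with miR-4307-3p. The ID2 calls with miR-3118-3p were lost with cyclic loess (adjusted p = 0.0611 and 0.0519) and without input replicate 1 (-0.42 and -0.61, adjusted p = 0.0698 and 0.0539), and also for the first probe without pull-down replicate 3 (-0.36, adjusted p = 0.0693) and for the second without input replicate 2 (-0.57, adjusted p = 0.0666). With miR-4307-3p, 1 array left out ended the call of ID1 in 2 cases (adjusted p up to 0.0593), that of the second ID2 probe in 2 (up to 0.0563) and that of MSX1 in 3 (up to 0.0660). MSX1, a homeobox factor, was lower with both (-0.55 with miR-3118-3p and -0.49 with miR-4307-3p), and MYC was lower with miR-4307-3p by 1 of its 2 probes (-0.67 ± 0.12), which was uncalled with miR-3118-3p (-0.28 ± 0.12, adjusted p = 0.106). The other MYC probe had -0.20 with miR-3118-3p and -0.44 (adjusted p = 0.134) with miR-4307-3p. Since each pull-down was set against its own input, these values concern recovery and not a change of the mRNA in the cells. For comparison, 0 of 3 GAPDH probes were called with either microRNA, and of 3 ACTB probes 1 was lower with miR-4307-3p (-0.80 ± 0.23, adjusted p = 0.0286), a probe at -0.58 ± 0.23 (adjusted p = 0.0832) with miR-3118-3p.

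**Figure D4:**
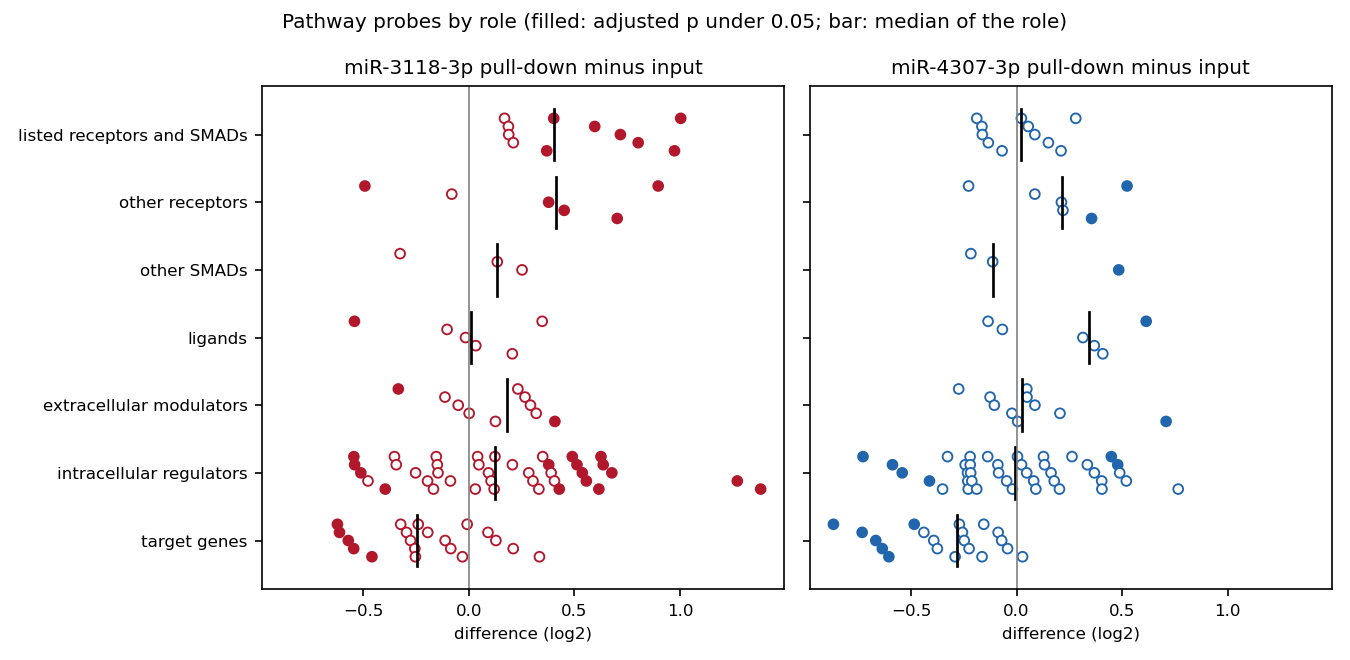
Pull-down minus input on the log2 scale for the 11 receptor and SMAD probes (top) and the 85 probes of the other pathway genes by role, miR-3118-3p left and miR-4307-3p right; filled points have an adjusted p under 0.05 and bars are medians. Filled points lie on both sides of 0 among intracellular regulators with miR-3118-3p, and at or below -0.46 among target genes with either microRNA.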

How the data were processed

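Values were those of the deposited series matrix, on a log2 scale. The authors used lumi, version 2.2.1, according to the submitters' processing notes; the sources used here do not give the normalization method, the transform or how probes were chosen. The 12 value columns of a second table match no sample label and were not used. Of 15025 probes, 12354 had 1 symbol in the platform annotation, 2 had several and 2669 were not listed. A mean per group was fitted per probe on all 12 arrays with limma 3.58.1 (R 4.3.3; lmFit, eBayes, 8 residual degrees of freedom), two-sided, with Benjamini-Hochberg adjustment over all probes, a threshold of 0.05 and 95% intervals. The fit was tested on simulated data. The members and lists were chosen with earlier results of these data known. Named pathway genes were each measured receptor and SMAD, and up to 6 genes in each other role by smallest adjusted p. No pair of arrays was identical (0 pairs); the small number of arrays limits precision.

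Replicate numbers come from the titles. Across probes, the deviations from the group means of a pull-down and the input with its number correlated at 0.344, 0.0736 and 0.476 for miR-3118-3p, and at 0.204, 0.342 and 0.286 for miR-4307-3p, where each exceeded 0.1. By that measure the miR-4307-3p arrays counted as paired. The main model nevertheless held no replicate block, so its tests were unpaired, and blocks were run only as alternatives. Figures were drawn with matplotlib 3.10.9.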

Additional observations from a re-analysis of the deposited data

Results flagged for a closer look

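Among the 11 probes and the 85 of the other pathway genes, 5 passed the test of the difference itself. Over all probes 2.77% were higher and 4.82% lower. The difference, miR-3118-3p minus miR-4307-3p, was 0.89 for BMPR2 probe 1, 0.95 for BMPR2 probe 2 and 0.91 for SMAD5 probe 2, all above 0. These calls were lost when any 1 of 8, 6 or 3 arrays, in that order, was left out. The difference was -1.16 for BMP7 and -1.04 for BAMBI, where the enrichment had opposite signs with the microRNAs, and both calls held in every alternative run. For BMPR2 probe 1 the inputs differed by -0.55 and the pull-downs by 0.34, and the part of the inputs in the result was not tested. Groups of 3 arrays are too small for a test of single outlying arrays.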

How the results depend on the processing

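Over 24 alternatives, 2353 values were recomputed for the probes described. Of these, 2172 kept their direction and side of the threshold, 139 lost and 18 gained a call, and 24 values, none of them called, turned sign. Many differences could not move. Leaving out an array of 1 microRNA kept the pull-down minus input difference of the other, and blocks or other fits of the spread kept all differences. There only the p could change. With miR-3118-3p, 7 receptor and SMAD probes were higher; 3 were with the spread of the 6 arrays compared, and 4 with 1 probe per gene (the brightest) or with probes averaged, where 8 values stand for 11 probes. The count was 4 to 7 when each array was left out, 4 without any 1 of the miR-3118-3p inputs. With miR-4307-3p it was 0 in each alternative. For the difference of enrichments 3 were higher, 1 with the brightest probe, and 0 to 4 when each array was left out, 0 without miR-4307-3p pull-down replicate 2 or input replicate 3. ACVR1B was also lost with an intensity trend (adjusted p = 0.0613) and with the spread of the 6 arrays (adjusted p = 0.103), which ended the calls of ACVR2A, SMAD5 probe 1 and SMAD7 probe 2 too. Pairing by a replicate block left the miR-3118-3p count at 7 and made that of the difference 4; SMAD7 probe 2 passed at 0.73 with the replicate block (adjusted p = 0.0441) and with the block within each microRNA (adjusted p = 0.00957), and no other call of the 11 probes in the 2 pull-down comparisons or their difference changed. ACVR1 then passed between pull-downs (0.46, adjusted p = 0.0452).

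Ranges here are over leaving out each array. Signs turned with miR-4307-3p for BMPR2 probe 1 (-0.024 to 0.19), BMPR2 probe 2 (-0.13 to 0.15; -0.020 with array weights), SMAD2 (-0.019 to 0.086; -0.015 with array weights), SMAD7 probe 1 (-0.26 to 0.088) and SMAD5 probe 2 (0.046 with probes averaged). With miR-3118-3p they did so for ACVR1 (-0.055 to 0.32) and SMAD4 (-0.089 to 0.36), and for SMAD9 (-0.0027 to 0.26) and BMPR1B (-0.19 to 0.035). Between inputs they did so for ACVR1B (-0.0029 to 0.044), SMAD4 (-0.0036 to 0.10), SMAD5 probe 1 (-0.076 to 0.057; 0.034 with array weights), SMAD7 probe 1 (-0.19 to 0.086) and SMAD7 probe 2 (-0.19 to 0.038).

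Over all probes, 1766 were higher and 1928 lower with miR-3118-3p, against 863 and 892 with the spread of its 6 arrays; 1181 and 1247 with miR-4307-3p became 1809 and 2233 so, 2293 and 2949 with array weights, and 770 and 585 with the brightest probe per gene. With 1 array left out they ran from 1181 to 2377 and 1245 to 2476 with miR-3118-3p, and from 797 to 1551 and 553 to 1925 with miR-4307-3p. For the difference, 416 higher became 770 with the block within each microRNA, 899 with array weights and 242 to 1036 with 1 array left out. Averaged probes gave 1176 higher and 1111 lower with miR-3118-3p and 705 lower with miR-4307-3p. Of the other pathway probes, 17 higher and 12 lower with miR-3118-3p became 4 and 5 with the 6 arrays, and 9 to 19 and 7 to 15 with 1 array left out. With miR-4307-3p, 7 higher became 13 with the 6 arrays, 17 with array weights and 2 to 13 with 1 array left out, and 10 lower became 16 with array weights, 5 with the brightest probe and 5 to 12 with 1 array left out. The spread of the 6 arrays also ended the miR-3118-3p calls of ACVR2B, TGFBR2 (both probes), AMHR2, FKBP1A (both called probes), STUB1, DAB2 and the first ID2 probe (adjusted p between 0.0544 and 0.109). The cause of these changes was not tested. Not run was neqc on signals before normalization, whose columns match no label; signal over background is therefore unknown. The spread of 6 arrays gives no difference of enrichments, and the block within each microRNA none between inputs.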
